A study of Mus musculus with 6 samples.

Results

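The genes described here are the nuclear effectors of canonical Wnt signaling (Lef1, Tcf7, Tcf7l1, Tcf7l2 and Sp5) and the intracellular proteins that hold the pathway back (Axin1, Axin2, Apc, Nkd1 and Nkd2). They were listed by name, and a gene was measured where a row of the array table carried its symbol and no other. This held for 9 of the 10 genes, each with 1 row, among 19938 genes tested in all, and Tcf7 is not analysed here. RNA came from pancreata of mouse embryos at E13.5. The control group is labelled wild type, and nothing used here states whether these embryos carried Cre or the floxed allele alone. The mutant group is labelled Pdx-Cre beta catenin-exon3 floxed (active), which is Pdx1-Cre; Ctnnb1 tm1Mmt/+. Each genotype had 3 pools of 3 pancreata, and every pool was hybridised to its own array (Affymetrix Mouse Gene 1.0 ST). Over all genes, arrays of 1 genotype correlated at 0.993 to 0.997 and arrays of different genotypes at 0.973 to 0.979. As a model the mutant is limited to cells in which the Pdx1 promoter has driven Cre, so the epithelium is targeted and the mesenchyme of the same pool is not.

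In the absence of a Wnt signal, β-catenin is held by the scaffolds Axin and Apc, phosphorylated on residues that exon 3 encodes, and degraded. When it escapes, it enters the nucleus and binds the Tcf/Lef proteins, which sit on DNA with corepressors and become activators once β-catenin is bound. Some of the genes switched on in this way, among them Axin2 and Nkd1, encode inhibitors of the pathway, and their RNA is widely used as a readout of Wnt activity. A β-catenin without exon 3 lacks the phosphorylated residues and is stable.

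Because Tcf/Lef proteins recognise a short DNA motif, the stretches before the start sites of the genes that rose are shown with that motif. The sequences are from RefSeq (build GRCm38.p6), read 5′ to 3′ on the strand of the gene, and hold the 250 bases before an annotated start site. Capitals mark CTTTGA or CTTTGT on either strand, and no matches overlapped in the sequences shown.
Sp5, chr2:70474673-70474922, plus strand: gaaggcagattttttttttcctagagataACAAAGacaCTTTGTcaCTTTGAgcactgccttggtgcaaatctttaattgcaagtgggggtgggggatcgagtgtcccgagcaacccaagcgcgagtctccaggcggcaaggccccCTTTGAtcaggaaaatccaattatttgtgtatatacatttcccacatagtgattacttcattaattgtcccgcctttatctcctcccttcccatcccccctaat
Lef1, the downstream start site, chr3:131156044-131156293, plus strand: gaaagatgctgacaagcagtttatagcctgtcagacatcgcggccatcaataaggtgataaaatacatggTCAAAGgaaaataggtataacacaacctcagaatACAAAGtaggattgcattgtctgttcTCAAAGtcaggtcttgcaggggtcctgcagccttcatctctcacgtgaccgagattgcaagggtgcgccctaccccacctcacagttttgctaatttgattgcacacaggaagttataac
Axin2, chr11:108920099-108920348, plus strand: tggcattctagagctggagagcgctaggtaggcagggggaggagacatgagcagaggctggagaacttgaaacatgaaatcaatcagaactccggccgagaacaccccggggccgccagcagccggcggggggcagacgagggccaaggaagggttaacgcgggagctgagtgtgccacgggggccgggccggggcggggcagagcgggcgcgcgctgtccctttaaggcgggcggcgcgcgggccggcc
Nkd1, chr8:88527383-88527632, plus strand: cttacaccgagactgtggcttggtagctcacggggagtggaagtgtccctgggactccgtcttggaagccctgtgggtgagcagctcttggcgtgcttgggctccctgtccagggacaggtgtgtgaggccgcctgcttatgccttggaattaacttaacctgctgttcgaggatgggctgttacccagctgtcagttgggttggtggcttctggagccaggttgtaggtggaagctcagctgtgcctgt
The Sp5 stretch held 4 matches, with first bases 221, 212, 204 and 104 bases before the start. At least 4 matches occurred in 0.0944% of the 32851 promoter stretches of this length in the table, and at least 1 in 27.6%. Lef1 has 4 annotated starts in the table. The 3 upstream stretches held 0 matches, and the one shown, 45997 bases downstream of the first start, held 3, a number reached by 0.776% of all stretches. The stretch shown is the only 1 of the 4 with a match, and 0.776% is a share of single stretches, not of the best of 4. Which start the measured Lef1 RNA came from was not tested. The stretches of Axin2, Nkd1 and Nkd2 held 0 matches, that of Tcf7l1 held 1, and the 2 of Tcf7l2 held 0 and 1. These are matches of letters within 250 bases and say nothing of binding.

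Across the 9 measured genes, 4 rose in the mutant pools, 1 fell and 4 were not called (limma, Benjamini-Hochberg adjusted over all genes, threshold 0.05). Sp5, Nkd1, Axin2 and Lef1 rose, by 7.14-fold, 5.66-fold, 2.76-fold and 1.77-fold, and Tcf7l2 fell 1.40-fold. Among all genes tested, 14.1% were called, 6.59% as higher and 7.53% as lower. A call with an increase of at least 2-fold was made for 3 of the 9 genes, against 1.3% of all genes. The median log2 change of the 9 genes was 0.03, as it was for all genes tested. This median is the value of Axin1 alone, and the 4 increases stood beside 1 called decrease and 4 genes that were not called. RNA came from the whole organ, so less RNA of a gene per cell and fewer cells that express it cannot be told apart.

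**Figure D1:**
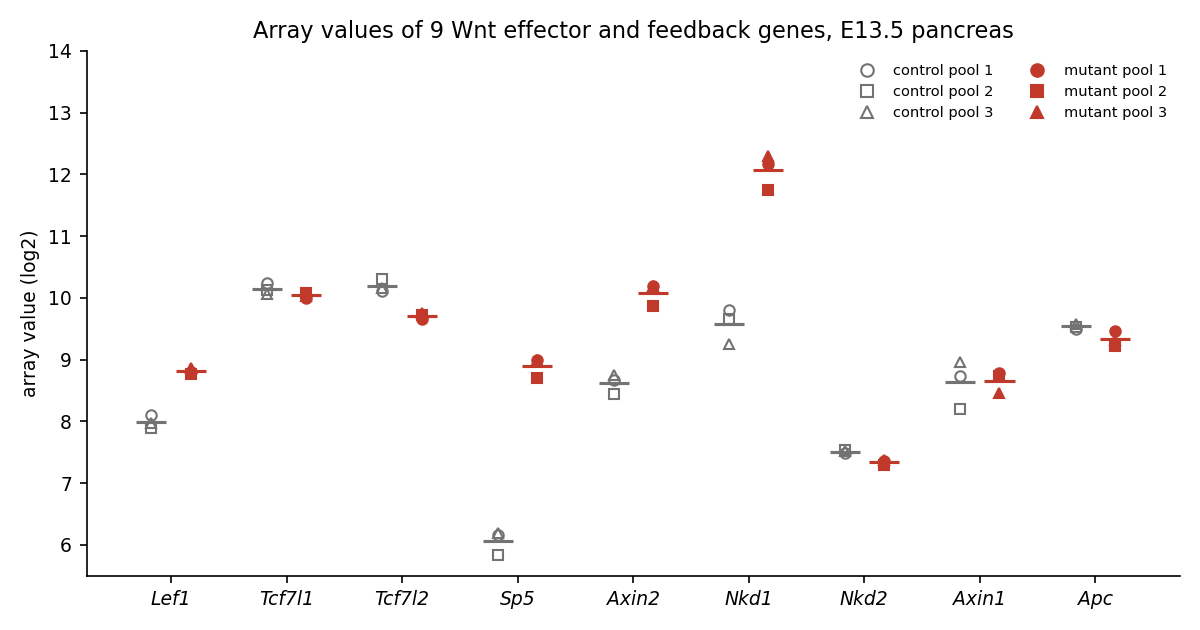
Array values (log2, vertical axis) of the 9 measured genes in each pool of E13.5 pancreata. Each symbol is 1 pool (open grey, control; filled red, mutant) and horizontal bars are means of 3 pools; the mutant pools lie above all control pools for Lef1, Sp5, Axin2 and Nkd1 and below them for Tcf7l2, Apc and Nkd2.

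Of the transcription factors, Sp5 had the largest increase. Sp5 is a zinc-finger protein and a direct Wnt target that in mouse cells can repress other targets of the pathway. The log2 array values were 6.15, 5.83 and 6.20 in controls against 8.99, 8.70 and 8.99 in mutants. The control values lay below the array medians of 6.37 to 6.47, and the array gives no detection calls, so the size of the increase is uncertain. The lowest mutant pool lay 2.50 above the highest control pool on the log2 scale. The log2 change was 2.83 (limma adjusted p = 5.93e-07, standard error 0.13), and ranked 17 in size among all increases of the 19938 genes.
Lef1, an activator of the Tcf/Lef family whose own transcription is raised by Wnt signaling, read at log2 values of 8.09, 7.89 and 7.97 in controls against 8.80, 8.76 and 8.86 in mutants. The groups were separated by 0.67 on the log2 scale, and the spread was small in both (SD 0.10 and 0.05, n = 3 each). The log2 change was 0.82 (limma adjusted p = 0.000231, standard error 0.09).
Tcf7l2, the family member that mediates Wnt responses of the intestinal epithelium, moved in the opposite direction. Log2 values read 10.10, 10.31 and 10.17 in controls against 9.65, 9.72 and 9.76 in mutants, with no overlap between the groups. The log2 change was -0.48 (limma adjusted p = 0.00667, standard error 0.09).
Tcf7l1, which acts mainly as a repressor, showed log2 signals of 10.23, 10.13 and 10.06 in controls against 10.003, 10.07 and 10.04 in mutants. The groups overlapped, and the log2 change of -0.11 (95% interval -0.31 to 0.10, adjusted p = 0.539 from limma) did not pass. The array gives 1 value per gene from probes spread over the transcript, so isoforms of Lef1 and Tcf7l2 with and without the β-catenin binding domain were not told apart.

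Of the intracellular inhibitors, Nkd1 and Axin2 rose while their relatives Nkd2 and Axin1 did not pass the test. Nkd1, which binds Dishevelled and dampens the signal, showed log2 signals of 9.81, 9.65 and 9.25 in controls against 12.17, 11.74 and 12.30 in mutants. Its groups were 1.93 apart on the log2 scale at the nearest pools. The log2 change was 2.50 (limma adjusted p = 8.14e-06, standard error 0.17), the increase of rank 22 among all genes.
Axin2, the scaffold of the destruction complex that Wnt signaling induces, showed log2 signals of 8.66, 8.44 and 8.75 in controls against 10.20, 9.87 and 10.19 in mutants. No pool of one genotype reached the values of the other, and the nearest were 1.13 apart. The log2 change was 1.47 (limma adjusted p = 2.94e-05, standard error 0.12), of rank 125 among the increases.
Nkd2, the other Dishevelled-binding protein of this family, showed log2 signals of 7.49, 7.53 and 7.51 in controls against 7.36, 7.29 and 7.37 in mutants. The mutant pools were all lower, but by a log2 change of only -0.17 (95% interval -0.36 to 0.02, adjusted p = 0.26 from limma). Axin1, the scaffold present without a Wnt signal, showed log2 signals of 8.73, 8.20 and 8.96 in controls against 8.79, 8.74 and 8.45 in mutants. These values overlapped, and the log2 change of 0.03 (95% interval -0.37 to 0.43, adjusted p = 0.946 from limma) did not pass. Its interval was the widest among the uncalled of the 9 measured genes.
Apc, the large scaffold that brings β-catenin to the complex, showed log2 signals of 9.50, 9.53 and 9.58 in controls against 9.46, 9.22 and 9.32 in mutants. The mutant pools were all lower, by 0.04 at the nearest pair, with a log2 change of -0.20 (95% interval -0.42 to 0.01, adjusted p = 0.219 from limma). In all, the genotypes did not overlap in 7 of the 9 genes, 4 with the mutant pools above and 3 below, where 30.9% of all genes tested showed no overlap, 16.9% with the mutant pools above and 13.9% below.

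**Figure D2:**
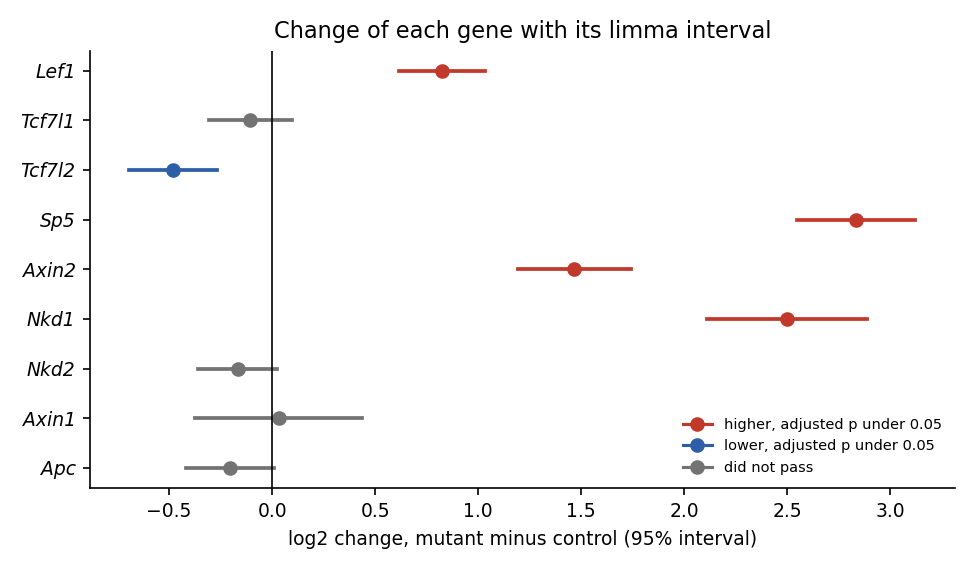
Log2 change (mutant minus control, horizontal axis) of each gene, as points with 95% intervals from limma. Sp5, Nkd1, Axin2 and Lef1 (red) were higher, Tcf7l2 (blue) was lower, and the intervals of the 4 grey genes include 0.

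Related genes were compared within each array, where a shift that scales the whole array cancels. The level of 1 gene against another depends on their probes, so only the shift between genotypes is read. On the log2 scale, Axin2 minus Axin1 was -0.06, 0.24 and -0.21 in controls against 1.41, 1.13 and 1.73 in mutants, a shift of 1.44. Nkd1 minus Nkd2 was 2.32, 2.12 and 1.74 in controls against 4.81, 4.45 and 4.93 in mutants, a shift of 2.67. Lef1 minus Tcf7l1 was -2.14, -2.24 and -2.10 in controls against -1.20, -1.31 and -1.18 in mutants, a shift of 0.93. All 3 mutant pools lay above all 3 control pools in each of the 3 pairs. In each pair the first gene was called higher and the second was not called, so this order largely follows from the single-gene results. Tcf7l2, which was called lower, is in none of these pairs. A further planned pair lacked a measured gene and was not computed. The exact two-sided permutation test gave p = 0.1 for each pair (adjusted over the 3 pairs, 0.1), the smallest that 3 pools against 3 allow, so the design cannot pass a threshold of 0.05 here.

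**Figure D3:**
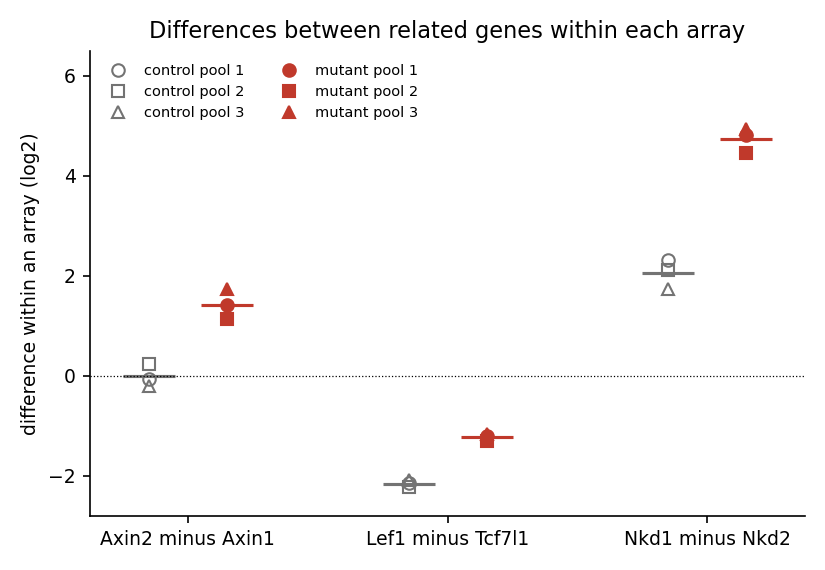
Difference of array values between 2 related genes within each array (log2, vertical axis) for 3 pairs. Symbols are pools (open grey, control; filled red, mutant), bars are means of 3 pools, and in every pair all mutant symbols lie above all control symbols.

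Within the mutant group, pool 2 had the lowest value of Sp5, Nkd1, Axin2 and Lef1 alike. The same pool was lowest for 758 of the 1313 genes called higher in the whole table (57.7%), so this order is shared with most of the increases. Control pool 2 had the lowest control value of Sp5, Axin2 and Lef1, and control pool 3 that of Nkd1. The difference between pools stayed well below the difference between genotypes, and without mutant pool 2 the log2 changes of Sp5, Nkd1, Axin2 and Lef1 all remained called.
The profile of Axin2 over the 6 arrays, taken as differences from the control mean of each gene, was most nearly matched by Vstm4, Abhd2, Sema3c, Dusp6 and Dach2. Their root mean square differences from Axin2 were 0.0771, 0.0772, 0.081, 0.0938 and 0.0965 on the log2 scale. This measure picks genes whose change is of the size of that of Axin2, here log2 changes of 1.40 to 1.57. Dusp6 encodes a phosphatase that turns off ERK, and Sema3c a secreted guidance protein. The nearest of the other effector and feedback genes was Lef1, at rank 283 with a root mean square difference of 0.47.

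**Figure D4:**
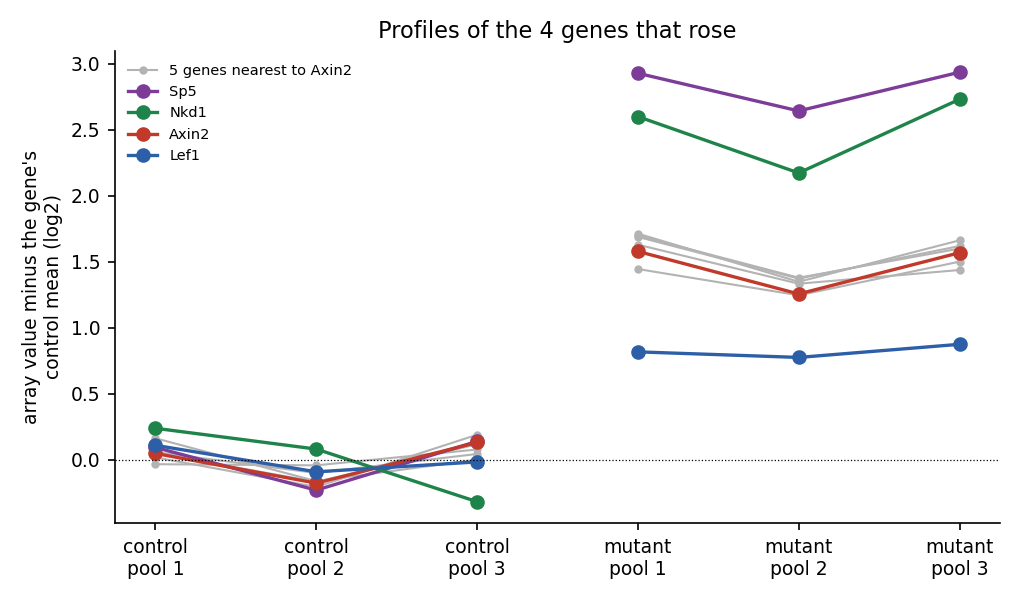
Array value minus the control mean of the gene (log2, vertical axis) in each of the 6 pools. Coloured lines are Sp5, Nkd1, Axin2 and Lef1, grey lines the 5 genes nearest to Axin2, and mutant pool 2 is the lowest mutant pool of all 4 coloured genes.

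Other genes of the pathway were read from 3 lists. For comparison, 14.1% of all genes tested were called, 6.59% as higher and 7.53% as lower. Of 36 measured target genes of Wnt signaling, 18 rose, 2 fell and 16 were not called, with a median log2 change of 0.48. The largest increases were those of Lgr5, a receptor for R-spondins (log2 change 4.44, standard error 0.11), Notum, an enzyme that inactivates Wnt proteins (4.02, standard error 0.16), Wif1, which binds Wnt proteins outside the cell (3.29, standard error 0.17), and Dkk1, which blocks the Lrp coreceptors (2.14, standard error 0.11). The control means of Wif1 (5.51) and Dkk1 (5.86) lay below the array medians of 6.37 to 6.47, so the sizes of their increases are uncertain. Rnf43 and Znrf3, ubiquitin ligases that remove Frizzled receptors, rose by 1.17 (standard error 0.12) and by 0.64 (standard error 0.09) on the log2 scale. The 2 that were lower were the transcription factor genes Ascl2 (log2 change -0.71, standard error 0.13) and Tbx3 (-0.43, standard error 0.12). The means of Ascl2 in controls (6.25) and in mutants (5.54) lay below the array medians, so the size of its decrease is uncertain. Tbx3 passed only narrowly (limma adjusted p = 0.0475). Myc and Ccnd1, growth genes often counted among the targets, did not pass, with log2 changes of -0.29 (95% interval -0.68 to 0.10) and 0.02 (95% interval -0.19 to 0.22). Rnf43, Znrf3, Ascl2, Tbx3, Myc and Ccnd1 were named after their values were seen.
Of 28 nuclear cofactors, 1 rose, 6 fell and 21 were not called, with a median log2 change of 0.01. Those called among the Groucho-type corepressors, which the Tcf/Lef proteins bind when β-catenin is absent, went both ways. Tle1 (log2 change -0.13) and Tle3 (0.10), named after their values were seen, did not pass. Tle4 rose by a log2 change of 0.79, from 8.02, 8.09 and 8.06 in controls to 8.88, 8.81 and 8.85 in mutants (limma adjusted p = 0.000163, standard error 0.09). Tle6, an atypical member, fell, from 7.87, 8.14 and 8.26 to 6.75, 6.48 and 6.64 (log2 change -1.47, standard error 0.12, adjusted p = 2.94e-05). Tle2 also fell (log2 change -0.55, standard error 0.14), as did the kinase gene Hipk2 (-0.59, standard error 0.11). The remaining 3 that were lower, named after their values were seen, were Tle5 (log2 change -0.43), a short family member, the acetyltransferase gene Crebbp (-0.38) and Med12 (-0.33), a Mediator subunit. Tle2 lost its call with all rows in the fit and when control replicate 1, control replicate 2, mutant replicate 1 or mutant replicate 3 was left out, and over all its alternatives its adjusted p ranged from 0.000951 to 0.126.
Of 29 cytoplasmic regulators, 2 rose, 1 fell and 26 were not called, with a median log2 change of -0.03. The share called in this list was not above the 14.1% of all genes tested. Dact1 and Dact3, whose proteins bind Dishevelled, rose, the former by 0.61 (standard error 0.15) and the latter by 0.50 (standard error 0.10) on the log2 scale. Frat1, whose protein binds Gsk3 and keeps it from Axin, had a log2 change of -0.82 (limma adjusted p = 0.0289, standard error 0.21). Its call was lost when replicate 1 or 3 of either genotype was left out, with the replicate number as a block and with all rows in the fit (adjusted p from 0.00155 to 0.125 over all its alternatives). Dact1 lost its call without mutant replicate 1 or 3 and with all rows in the fit (adjusted p from 0.00169 to 0.0897). Ctnnb1 itself, the altered gene, read at log2 values of 12.36, 12.14 and 12.32 in controls against 12.64, 12.37 and 12.65 in mutants, and its log2 change of 0.28 did not pass (adjusted p = 0.148 from limma). The probes cover the whole transcript, so the value does not test whether exon 3 was lost. Without mutant replicate 2, and with array weights, Ctnnb1 passed (adjusted p from 0.0123 to 0.389 over all its alternatives).

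**Figure D5:**
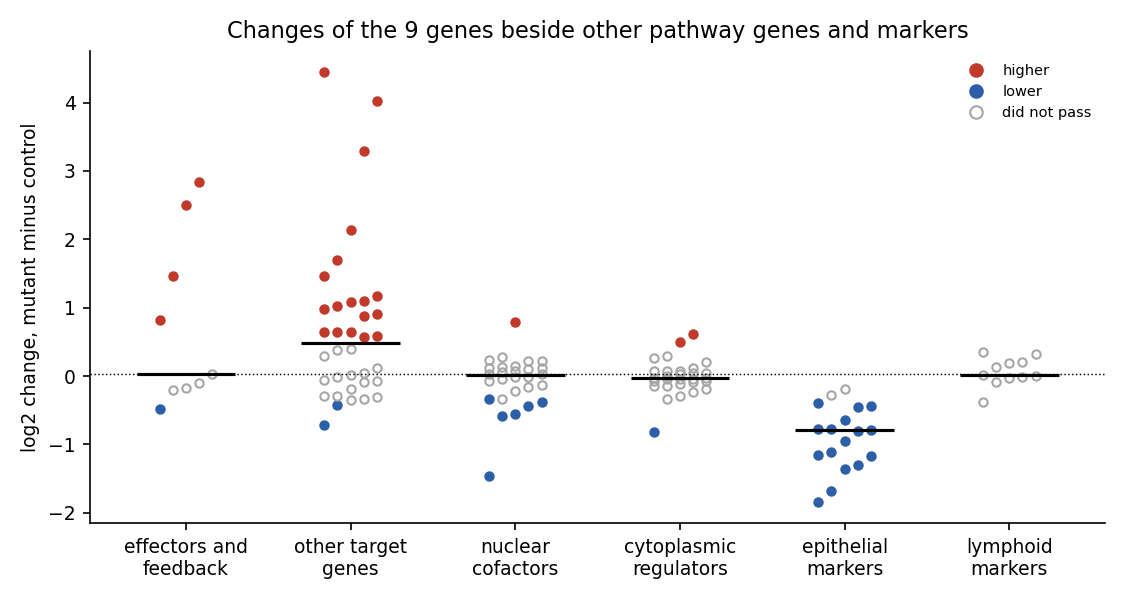
Log2 change (mutant minus control, vertical axis) of every measured gene of 6 lists, as points coloured by the limma call. Solid bars are list medians and the dotted line is the median of all genes tested; the 4 red effector and feedback genes lie in the range of the 18 target genes that rose.

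Cell type markers are read beside all genes tested, of which 6.59% were called higher and 7.53% lower. General epithelial markers were lower in the mutant pools for 16 of 18 genes, none was higher, and their median log2 change was -0.79. Their mean log2 level was 9.66 to 9.90 in controls against 8.83 to 8.90 in mutants. Krt8, Cdh1, Elf3 and Cldn3 led them, with log2 changes of -1.84, -1.68, -1.37 and -1.30. Sp5, Nkd1, Axin2 and Lef1 were higher in the same pools in which markers of the epithelium, the tissue in which Cre acts, were lower. Which cells these increases came from was not measured. All 11 markers of pancreatic epithelium were lower too, with Neurog3 at a log2 change of -4.61, Pdx1 at -4.16, Neurod1 at -3.99 and Cpa1 at -3.86. Of 12 mesenchyme markers 4 were higher and 2 lower (median log2 change 0.13), with Tcf21 at 1.26 and Fn1 at 0.64 among the former and Prrx1 at -2.49 among the latter. Lum rose by 0.84, but its call was lost without any 1 array other than control replicate 3, and with all rows in the fit (adjusted p from 0.00217 to 0.152 over all its alternatives). Tcf7l2 was lower together with the epithelial markers, and the part of these cell types in the changes of the 9 genes was not tested.
Lef1 is also known from T cells, and lymphoid markers were listed for that reason. Of 11 lymphoid markers 0 were called by limma (3 at an unadjusted p under 0.05), and their mean log2 level was 5.59 to 5.66 in controls against 5.63 to 5.79 in mutants. These means lay below the array medians of 6.37 to 6.47, so the list cannot show whether T cells were present. The smallest p of the list was that of Cd3g, with a log2 change of 0.35 (adjusted p = 0.107 from limma), and it passed without mutant replicate 1. Of 8 macrophage markers 0 were called by limma (2 at an unadjusted p under 0.05), with Cx3cr1 at a log2 change of 0.28. It passed under 4 of 16 alternatives, namely median centring, both filters on dim genes and array weights (limma adjusted p from 0.0206 to 0.206 over all of them). Of 8 neural markers 7 were lower and 1 was higher, among them Ret (log2 change -2.59), Dcx (-2.32), Phox2a (-0.83) and Ednrb (0.89). The other 4, named after their values were seen, fell less than Ret and Dcx. These were Tubb3 (log2 change -0.66), Sox10 (-0.61), Elavl4 (-0.57) and Stmn2 (-0.56). Of 8 endothelial markers only Cdh5 was higher (log2 change 0.32, adjusted p = 0.0417 from limma), a call lost under 9 of 16 alternatives. Of 5 erythroid markers Hbb-bh1 was higher (log2 change 0.59) and Epb42 lower (-1.41). The Hbb-bh1 call was lost with the replicate number as a block, with all rows in the fit and when replicate 1 or 2 of either genotype was left out (limma adjusted p up to 0.105). The part of these cells in the changes was not tested either.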

How the data were processed

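RNA from 3 control and 3 mutant pools of E13.5 pancreata was measured on Affymetrix Mouse Gene 1.0 ST arrays, 1 array per pool. The authors deposited log2 values per probe set, with no statement found here of how background was corrected or arrays were normalized. Array medians were 6.37 to 6.47, and no further scaling was applied. Probe sets were named through GEO's platform annotation: of 35556, 21789 carried 1 symbol, 1621 several and 12146 none. Where a gene had several rows (999 genes), the row of highest mean was kept, which left 19938 genes. Arrays limit precision by their number, 3 per genotype. Whether pools shared litters, and so were independent, is not given. The limma p-values set the difference between genotypes against the spread between pools, with a variance moderated over all genes. The spread between single embryos was not measured.

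Genotypes were compared by limma (lmFit and eBayes, version 3.58.1, R 4.3.3) with Benjamini-Hochberg adjustment over all genes and a threshold of 0.05, after the code was tested on simulated data. Pairs of related genes were compared by exact permutation. Tables and figures used Python 3.11.15, pandas 2.3.3, numpy 2.4.6 and matplotlib 3.10.9. The members and gene lists were chosen with earlier results of these data known. Of each list, the text names up to 4 called genes with the largest absolute change, or the gene of smallest p where none was called. For Axin2 it names the 5 genes of nearest profile, and other genes are marked as named after their values were seen. Tcf7 had no row with its symbol alone and was left out, as were Ephb2 and Tbxt among the targets. Promoter entries were found for 8 of the 10 genes (none for Axin1 and Apc). Alternatives were the replicate number as a block, leaving out each array, median, housekeeping and quantile scaling, genes above the lower quartile or the median of level, averaging a gene's several rows, fitting every row, a trended robust prior and array weights. Genes marked as named after their values were seen were not recomputed singly under these alternatives.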

Additional observations from a re-analysis of the deposited data

How the results depend on the processing

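All 9 measured genes kept their direction of call, or their lack of one, under all 16 alternatives: 4 were higher and 1 lower each time. The block, averaging of rows, filters on level, fitting of every row and the robust prior left their log2 changes unchanged and altered only the test. Tcf7l2, the weakest call, had adjusted p from 0.000467 to 0.0421. The sign of the Axin1 change, never called, varied between -0.18 and 0.20. Without 1 array, the shifts within pairs were 1.28 to 1.58 for Axin2 minus Axin1, 0.89 to 0.97 for Lef1 minus Tcf7l1 and 2.51 to 2.81 for Nkd1 minus Nkd2.

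Of the 93 genes of the 3 pathway lists, 21 were higher and 9 lower. The number higher was 13 among genes above the median level, where only 75 genes remained, and 20 to 22 without 1 array. The number lower was 3 with all rows in the fit, 16 with array weights, 4 with the replicate block and 4 to 7 without 1 array. The causes of the last 3 and of the count with all rows were not tested. Among all genes tested, 1313 were higher and 1502 lower, against 751 and 1028 with all rows, 3025 and 2422 with array weights, 843 to 1328 and 1132 to 1413 without 1 array, and 1011 and 1274 with the replicate block. Deviations of pools of the same number correlated at 0.014, -0.154 and -0.0464, and those of pools of different numbers at -0.186 to 0.195. With 3 pools per genotype, these values cannot settle whether pools of the same number share more than a number. The block changed no call of the 9 genes. The median log2 change of all genes was 0.03, and it was 0.07 with each array centred on its median and 0.02 with centring on the housekeeping genes. Of 12 housekeeping genes 2 were higher and 1 lower. With 3 pools, small changes such as those of Apc and Nkd2 could not be told from none, and the array gives no detection calls for low genes.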
